A study of Mus musculus with 28 samples.

Results

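The 10 genes described here carry glucose to pyruvate and decide where pyruvate goes, and their RNA was followed through all RNA-seq libraries of a study of Alkbh5 in mouse hair follicle stem cells. They were taken by symbol, namely Slc2a1, Hk2, Pfkp, Aldoa, Pgk1, Pkm, Ldha, Mpc1, Mpc2 and Pdk1. All 10 were found in each of the 3 gene tables, which list 56691, 47243 and 57010 genes. ALKBH5 removes the methyl mark m6A from RNA. The animals were Alkbh5 conditional knockout (cKO) mice and wild-type (WT) mice, both at postnatal day 69. The groups were cKO and WT bulge stem cells prepared by SHERRY2 from 200 ng of RNA, cKO and WT hair germ stem cells prepared by SHERRY2 from 40 ng, and cKO and WT hair germ stem cells prepared by SMART-seq from 40 ng. Each group held 2 mice, 1 library each. Of 28 samples in the labels, the 16 m6A libraries were not analysed here. In SHERRY2 a transposase cuts and tags the hybrid of RNA and cDNA, whereas SMART-seq copies whole transcripts and amplifies them. The promoter that drives Cre, the exon deleted, the sorting markers and any agent given to the animals are not stated in the labels.

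Glucose enters the cell through transporters such as SLC2A1 (GLUT1), is trapped by hexokinase and is split and oxidised to pyruvate. Lactate dehydrogenase turns pyruvate into lactate in the cytosol, whereas the mitochondrial pyruvate carrier, made of MPC1 and MPC2, brings it to pyruvate dehydrogenase, which the PDK kinases switch off. In mouse hair follicles, work on deletions of Ldha and of Mpc1 in stem cells has placed this choice in the timing of growth: without Ldha the stem cells failed to become active, and without Mpc1 they made more lactate and entered growth sooner. Many glycolytic genes are also known targets of the hypoxia-inducible factor HIF, which binds short motifs near their starts.

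The gene whose RNA changed, Slc2a1, and Ldha, which did not pass the test, are both textbook HIF targets, so their promoters are shown for comparison. Each is the 250 bases before the gene's start in RefSeq on GRCm38.p6, given 5′ to 3′ on the gene's plus strand, with capitals for ACGTG or GCGTG, the core of the HIF motif, read on either strand. All 10 genes matched the RefSeq promoter table.
Slc2a1, chr4:119108495-119108744: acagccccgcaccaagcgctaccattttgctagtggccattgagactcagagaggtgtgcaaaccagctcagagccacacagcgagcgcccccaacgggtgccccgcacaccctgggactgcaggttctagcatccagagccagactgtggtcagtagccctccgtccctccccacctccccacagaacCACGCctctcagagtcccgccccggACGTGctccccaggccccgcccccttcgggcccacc
Ldha, chr7:46845554-46845803: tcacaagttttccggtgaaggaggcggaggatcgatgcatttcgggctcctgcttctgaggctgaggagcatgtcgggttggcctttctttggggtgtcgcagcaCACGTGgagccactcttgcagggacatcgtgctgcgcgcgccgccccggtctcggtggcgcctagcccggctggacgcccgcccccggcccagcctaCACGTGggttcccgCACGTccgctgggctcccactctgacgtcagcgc
The Slc2a1 window held 2 matches, which begin 61 and 36 bases before the start. The Ldha window held 5 matches, 4 of them from 2 copies of the palindrome CACGTG, which counts once on each strand and is also the motif of other factors. Pfkp had 3 matches, Hk2 and Pgk1 had 2 each, Mpc1, Mpc2 and Pdk1 had 1 each, and Aldoa and Pkm had 0 in this window. Of 27025 mouse promoters of the same length, 38.6% held at least 1 match and 16.8% held 2 or more. A match is a run of letters, and binding was not measured.

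The datasets differed in sequencing depth. Bulge libraries held 14676168 to 21187283 reads in genes and SMART-seq libraries 9001396 to 14416601. Hair germ SHERRY2 libraries held 1526070 and 2317407 reads in cKO mice and 1513001 and 488648 in WT mice, with reads on 38272 to 42826 genes, more than in the bulge (21171 to 22959). Alkbh5 itself was read at 4.21 and 2.38 CPM (counts scaled to library size) in cKO bulge libraries, against 107 and 96.1 CPM in WT bulge libraries. It was at 16.7 and 9.29 CPM in cKO hair germ SHERRY2 libraries and 75.0 and 53.6 CPM in WT ones. In SMART-seq it was at 83.5 and 106 CPM in the libraries labelled cKO and 136 and 94.2 CPM in those labelled WT, which overlap, so the RNA level does not bear out those labels. The keratins of the follicle's basal cells were high in every library (Krt5 and Krt14), and the bulge marker Krt15 was at 4740 and 4910 CPM in cKO bulge libraries, against 8070 and 8320 CPM in WT bulge libraries.

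In bulge stem cells, the glucose transporter was the member that changed. Slc2a1 RNA fell in cKO to 0.509 times its WT mean, while Ldha and Mpc1 did not pass the test. One of the 10 genes was called lower and 0 higher, in a comparison where 476 of 15672 genes tested were called (3.04%; 1.6% lower and 1.44% higher). An unadjusted p under 0.05 was reached by 3 of the 10 genes (Slc2a1, Pkm and Mpc2), beside 18.9% of all genes tested. The median log2 fold change of the 10 genes was 0.14, beside -0.01 for all genes tested. In bulk RNA, fewer cells of a type and less RNA per cell cannot be told apart.

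Slc2a1, at chr4:118965908-118995180 in the bulge table, whose genome build is not named, had 102 and 104 CPM in cKO libraries, against 214 and 190 CPM in WT libraries. The cKO libraries lay close together and well below both WT libraries. The log2 fold change was -0.97 (SE 0.15), with an adjusted p of 0.019 by edgeR's quasi-likelihood test with Benjamini-Hochberg adjustment, lower in 2 of 2 cKO libraries. With any 1 library left out it stayed between -1.07 and -0.89, with adjusted p from 0.00731 to 0.0369 in edgeR. WT mouse 2, the only bulge library with male RNA (129 CPM of Y-linked Ddx3y, against 0.0 to 0.307 CPM in the other 3), is the WT library nearer to the cKO ones, and the log2 fold change was -1.07 without it. Genes on the opposite strand at this locus were near empty, with 3 to 27 reads a library, against 1646 to 4193 reads of Slc2a1.

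The next steps of glycolysis did not follow. Hk2, the inducible hexokinase that traps glucose, had 29.8 and 22.6 CPM in cKO libraries and 23.6 and 14.7 CPM in WT libraries, which overlap. Pfkp, the platelet-type phosphofructokinase, had 226 and 232 CPM in cKO libraries and 246 and 212 CPM in WT libraries. The WT pair spans the cKO pair, and the log2 fold change was close to 0, at -0.000893 (SE 0.15). Aldoa, the aldolase that splits the six-carbon sugar, had 397 and 454 CPM in cKO libraries, below the 483 and 483 CPM in WT libraries, with a log2 fold change of -0.18 (SE 0.16, adjusted p = 0.612 in edgeR). Pfkp shares its locus with Pitrm1 on the opposite strand (689 to 1208 reads a library), and whether strand was used in counting is not given.

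The 2 payoff steps had mean levels above WT and did not pass the test in edgeR. Pgk1, the first ATP-making enzyme, had 137 and 188 CPM in cKO libraries and 131 and 149 CPM in WT libraries. Pkm, pyruvate kinase, had 644 and 761 CPM in cKO libraries, against 483 and 481 CPM in WT libraries. Both cKO libraries of Pkm lay above both WT libraries, whereas those of Pgk1 overlapped. The log2 fold change of Pkm was 0.54 (SE 0.17), with an adjusted p of 0.146 in edgeR and 0.0207 in DESeq2, so its call depends on the tool (DESeq2 called 4.42% of 26954 genes). The table lists Gm49759, which overlaps Pkm on the same strand, with 261 to 569 reads.

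At the pyruvate branch, the genes that send pyruvate to lactate or into the mitochondrion showed no called change. Ldha, at chr7:46490899-46505051 in the same table, had 304 and 386 CPM in cKO libraries and 317 and 307 CPM in WT libraries. One cKO library was above and one below the WT pair, and the log2 fold change was 0.15 (SE 0.17, adjusted p = 0.712 in edgeR). Mpc1, at chr17:8501736-8516493, had 25.1 and 29.2 CPM in cKO libraries and 21.9 and 25.4 CPM in WT libraries, again overlapping (log2 fold change 0.20, SE 0.19). Mpc2, its partner in the carrier, had 35.3 and 39.3 CPM in cKO libraries, below the 44.7 and 58.4 CPM in WT libraries. The Mpc2 log2 fold change of -0.46 (SE 0.19) had an unadjusted p of 0.038 and an adjusted p of 0.229 in edgeR. Pdk1, the HIF-controlled kinase of pyruvate dehydrogenase, had 94.7 and 93.7 CPM in cKO libraries, inside the WT values of 74.0 and 96.7 CPM. Groups did not overlap for 4 of the 10 genes, beside 50.9% of all genes tested: 1 with cKO above (24.7% of all genes) and 3 with cKO below (26.2%).

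**Figure D1:**
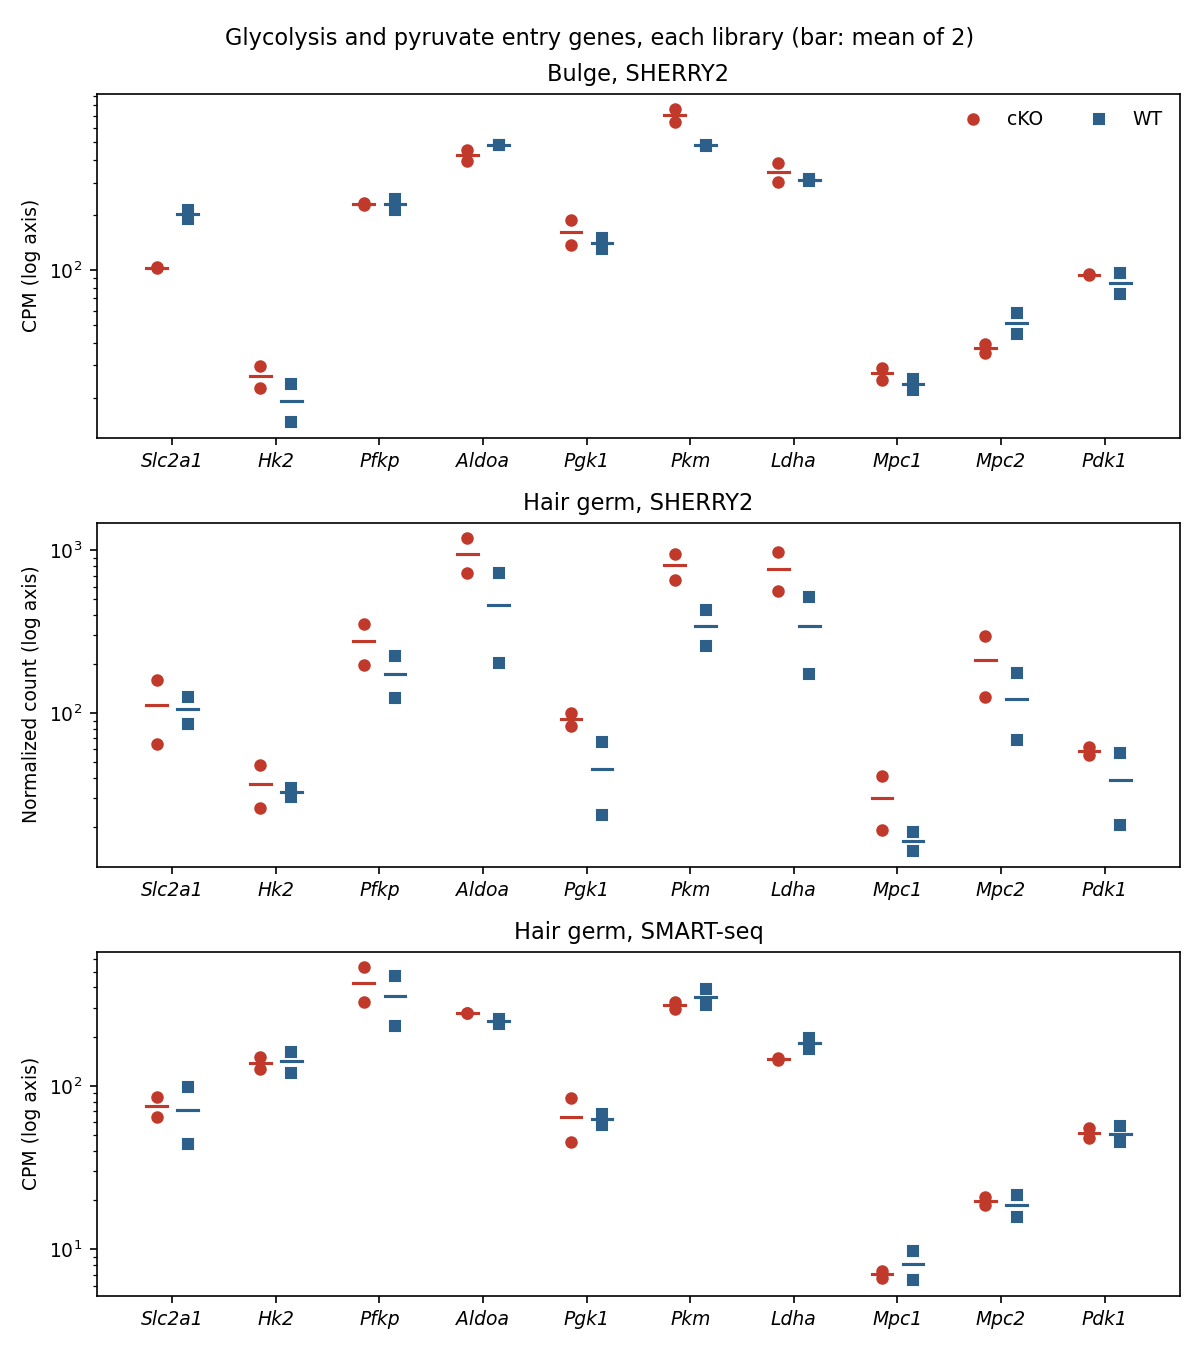
Level of the 10 genes in each library, with cKO circles left of WT squares and a bar at the mean of 2 libraries, in CPM (bulge, SMART-seq) or the authors' normalized counts (hair germ SHERRY2), on log axes. In the bulge, Slc2a1 sits at 102 and 104 CPM in cKO, apart from 214 and 190 CPM in WT, while Ldha and Mpc1 overlap.

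Reads of Mpc1 can be shared with a near copy. Mpc1-ps, a pseudogene, took 31.9 to 38.4% of the reads of both in the bulge, 9.52 to 39.5% in hair germ SHERRY2 and 5.0 to 8.0% in SMART-seq. With the reads of both summed, an analysis chosen after seeing the data, the bulge log2 fold change of Mpc1 was 0.17 in edgeR, against 0.20 for Mpc1 alone. Aldoa has a second gene ID under its symbol, with 10 to 27 reads in the bulge beside 6417 to 9546 for the ID used.

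A pair of genes at the mitochondrial fate of pyruvate changed by more than Slc2a1. Pdk4, the starvation-induced kinase that turns the complex off, fell in cKO bulge cells to 4.15 and 4.04 CPM, against 23.6 and 33.9 CPM in WT. Its log2 fold change was -2.81 (SE 0.27, adjusted p = 0.0033 in edgeR, lower in 2 of 2 cKO libraries). Pcx, pyruvate carboxylase, which makes oxaloacetate from pyruvate, rose to 54.9 and 83.7 CPM in cKO, against 17.3 and 16.6 CPM in WT. Its log2 fold change was 2.03 (SE 0.23, adjusted p = 0.00677 in edgeR, higher in 2 of 2 cKO libraries). Both calls held with any 1 library left out. Lrfn4 overlaps Pcx on the opposite strand and had 417 and 518 reads in cKO and 576 and 351 in WT, so its reads did not move with Pcx. These were the 2 called of 12 genes of pyruvate dehydrogenase and its control, beside 3.04% of all genes tested. The median log2 fold change of the 12 was 0.05. Pdk2, another kinase of the family, had 30.8 and 21.0 CPM in cKO and 41.9 and 34.9 CPM in WT, with an adjusted p of 0.215 in edgeR.

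The make-up of the kinase family differed between genotypes in the bulge. Per kilobase of exon, Pdk4 was 3.53 and 3.55% of Pdk1 to Pdk4 in cKO libraries, against 16.3 and 22.8% in WT libraries. Pdk1 was 36.4 and 37.1% of the family in cKO, against 23.1 and 29.4% in WT, although its own level overlapped. With 2 libraries a group, an exact two-sided permutation test cannot give a p below 0.333, so shares are described without a test. In hair germ SHERRY2, Pdk4 was 8.78 and 9.71% in cKO and 8.57 and 13.7% in WT, which overlap. There the groups lay apart for other kinases: Pdk3 was 19.9 and 21.9% in cKO, against 39.8 and 32.8% in WT, and Pdk2 was 56.5 and 44.6% in cKO, against 34.4 and 43.6% in WT. The shares of WT mouse 2 there rest on 13 reads of Pdk1, 23 of Pdk2, 14 of Pdk3 and 8 of Pdk4. In the bulge, the Pdk3 share per kilobase lay apart the other way, at 30.9 and 38.9% in cKO, against 28.4 and 21.7% in WT. Its own level overlapped there, at 26.5 and 32.4 CPM in cKO and 30.0 and 23.5 CPM in WT. The shares of Pdk2, Pdk3 and Pdk4 weigh reads by exon length and were not taken without it.

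**Figure D2:**
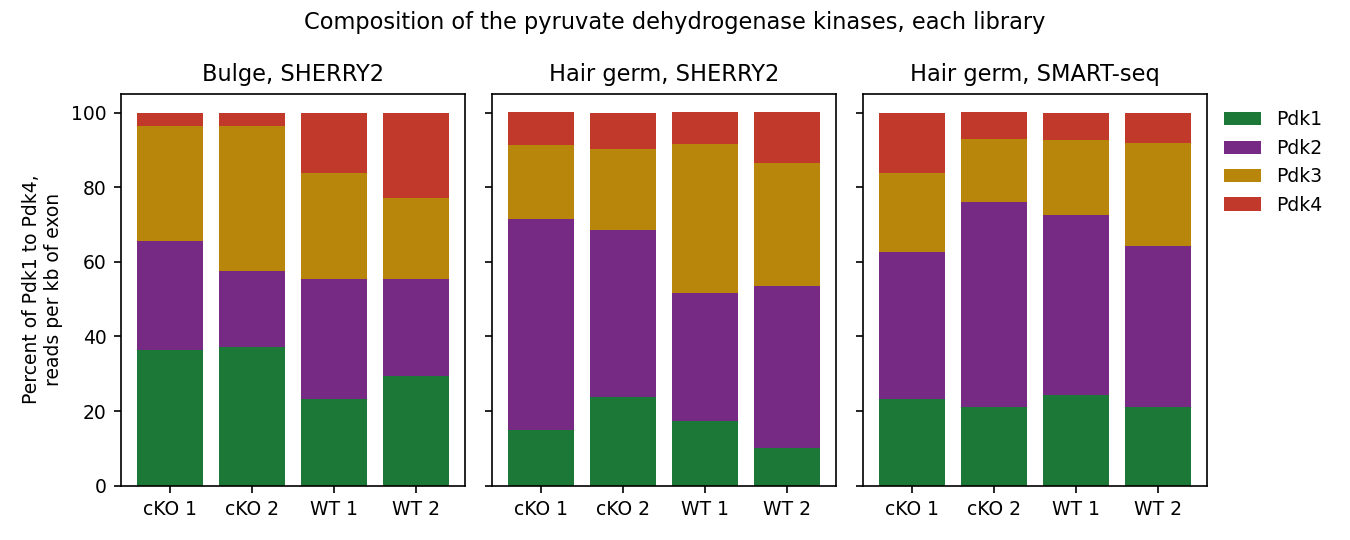
Share of each pyruvate dehydrogenase kinase in the sum of Pdk1 to Pdk4, in percent of reads per kilobase of exon, 1 bar per library, cKO bars left of WT bars. In the bulge, Pdk4 takes 3.53 and 3.55% in cKO and 16.3 and 22.8% in WT, while its hair germ shares overlap between genotypes.

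Other pairs of isozymes or partners shifted by less. Mpc1 made up 71.4 and 72.4% of Mpc1 plus Mpc2 per kilobase in cKO bulge libraries, against 63.4 and 60.5% in WT ones. Ldha made up 82.4 and 82.3% of Ldha plus Ldhb, the heart-type subunit, in cKO, against 80.8 and 75.8% in WT. Both cKO libraries lay above both WT libraries in each case. Among the levels of single genes this held for 24.7% of all genes tested in the bulge. Shares were not taken over all genes. Hk2 was the minor hexokinase in the bulge, with 23.3 and 18.0% of Hk1 plus Hk2 in cKO and 18.1 and 15.3% in WT. Slc2a1 was nearly all of Slc2a1 plus Slc2a3 in the bulge, at 98.3 and 98.8% in cKO and 99.4 and 99.0% in WT, with Slc2a3, the neuronal-type transporter, a small remainder in both genotypes.

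Other glycolytic enzymes did not pass the test in the bulge. Of 13 other glycolytic enzymes tested, 0 were called in edgeR (2 had an unadjusted p under 0.05), with a median log2 fold change of 0.04. Groups did not overlap for 7 of them, beside 50.9% of all genes tested: 4 with cKO above (24.7% of all genes) and 3 with cKO below (26.2%). Pgam1, a phosphoglycerate mutase, had a log2 fold change of 0.61, with an adjusted p of 0.101 in edgeR and 0.0263 in DESeq2. With any 1 library left out its log2 fold change ran from 0.44 to 0.79. Aldoc, a minor aldolase, had 14.2 and 12.5 CPM in cKO and 23.9 and 21.1 CPM in WT. Gapdh, the usual reference gene of the pathway, had 60.2 and 65.2 CPM in cKO and 55.2 and 46.0 CPM in WT. That is a low level for this gene, which was at 144 to 221 CPM in SMART-seq and 341 to 1180 CPM in hair germ SHERRY2. The cause of this gap was not tested. Of 10 genes of glucose and lactate transport and of phosphofructokinase control, 0 were called in edgeR (3 had an unadjusted p under 0.05), although 8 had positive values and their median was 0.39. Slc16a1, the lactate carrier MCT1, had 20.6 and 34.5 CPM in cKO, against 14.3 and 14.7 CPM in WT. Its log2 fold change of 0.93 (SE 0.27) had an adjusted p of 0.114 in edgeR and 0.0328 in DESeq2. Pfkfb2 and Tigar, which raise and lower the activator of phosphofructokinase, had log2 fold changes of 0.49 and 0.55 and did not pass the test.

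Downstream, none of 18 genes of the tricarboxylic acid cycle and none of 7 genes of the pentose phosphate pathway were called in the bulge by edgeR (1 of each list had an unadjusted p under 0.05). Their medians were -0.07 and -0.04. Sdhc, a membrane anchor of succinate dehydrogenase, had 92.8 and 98.2 CPM in cKO and 124 and 127 CPM in WT. Tkt, transketolase of the pentose phosphate pathway, had 301 and 413 CPM in cKO and 256 and 235 CPM in WT, with an adjusted p of 0.171 in edgeR. Idh3b of the cycle had a log2 fold change of -0.26, and Rpia and Pgls of the pentose pathway -0.34 and -0.24. Sdhc had an adjusted p of 0.178 in the same fit, so none of these 5 passed.

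Hypoxia targets outside glycolysis stood on the lower side in the bulge. Of 15 tested, 4 were called lower, beside 1.6% of all genes tested, and 0 higher. Their median log2 fold change was -0.38, and 13 had negative values. The 15 include Hif1a, a gene of HIF itself, which was counted with the targets. In 10 of 15 both cKO libraries lay below both WT libraries, beside 26.2% of all genes tested. Adm, the vasodilator peptide adrenomedullin, fell to 1.11 and 0.428 CPM in cKO, against 11.6 and 10.2 CPM in WT (log2 fold change -3.85, SE 0.50, adjusted p = 0.0114 in edgeR). Bnip3, which marks mitochondria for removal, fell to 32.4 and 30.8 CPM in cKO, against 66.3 and 73.1 CPM in WT (log2 fold change -1.14, SE 0.16, adjusted p = 0.0137 in edgeR). Both kept their calls with any 1 library left out. Ndrg1, a stress-response gene, had 53.0 and 31.7 CPM in cKO and 111 and 100.0 CPM in WT, and Mxi1, an antagonist of MYC, had 60.8 and 58.5 CPM in cKO and 93.7 and 103 CPM in WT. Ndrg1 fell with a log2 fold change of -1.33 and Mxi1 with -0.72, at adjusted p of 0.0332 and 0.0465 in edgeR. Ndrg1 lost its call without WT mouse 1 (adjusted p = 0.0673) or WT mouse 2 (adjusted p = 0.0722) in edgeR. Mxi1 lost its call in edgeR without WT mouse 1 (adjusted p = 0.0559), WT mouse 2 (adjusted p = 0.142) or cKO mouse 2 (adjusted p = 0.0928). Without either WT library, 2 of the 15 were called. Many of the 10 members are themselves known HIF targets. Of these members Slc2a1 fell, while Hk2, Pfkp, Aldoa, Pgk1, Pkm, Ldha and Pdk1 had log2 fold changes from -0.18 (Aldoa) to 0.54 (Pkm) and did not pass the test in edgeR.

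**Figure D3:**
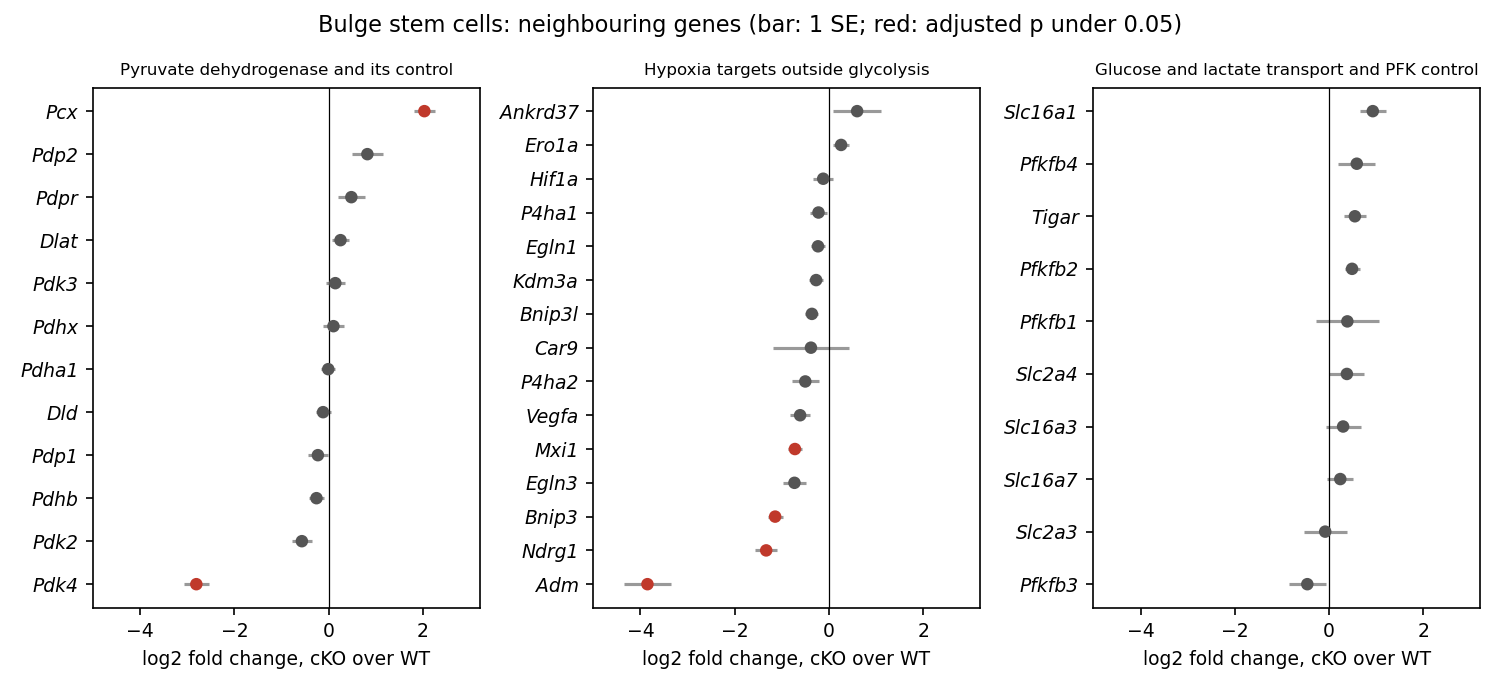
Log2 fold change, cKO over WT, in bulge stem cells for genes of pyruvate dehydrogenase control, hypoxia targets (with Hif1a) and glucose or lactate transport, with bars of 1 SE and red points where the adjusted p was under 0.05. Pdk4 at -2.81 and Pcx at 2.03 stand at the ends of the first panel, and 4 hypoxia targets are red on the lower side.

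Other cells and states moved with genotype in the bulge libraries. The summed level of 7 immune cell markers was 87.5 and 48.1 CPM in cKO, against 260 and 202 CPM in WT. Of 6 tested, 3 were called lower, beside 1.6% of all genes tested. None of the 7 was at 0 in all libraries. The sum of 4 markers of dividing cells was 568 and 987 CPM in cKO, against 365 and 317 CPM in WT. Of these 4, 2 were called higher, beside 1.44% of all genes tested. The sum of 8 bulge stem cell markers was 5690 and 5350 CPM in cKO and 8840 and 9110 CPM in WT, with 0 called in edgeR. Most of that sum was Krt15. Of the 8, 2 had both cKO libraries below both WT libraries, beside 26.2% of all genes tested. Cd34, for one, was at 366 and 136 CPM in cKO and 247 and 241 CPM in WT, which overlap. Their part in the values of Slc2a1, Pcx or the hypoxia targets was not tested. The 4 markers of skeletal muscle summed to 0.371 and 4.23 CPM in cKO and 7.0 and 0.284 CPM in WT, with Tnnt3 at 0. Markers of fat cells summed to at most 1.43 CPM in any bulge library.

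In hair germ stem cells prepared by SHERRY2, none of the 10 genes was called. Of 38953 genes tested with limma, 3 were called (0.0077%) and 1801 had an unadjusted p under 0.05, none of them a member (4.62% of all genes); edgeR on the recovered reads called 63 genes (0.377%) and DESeq2 called 0, with no member in either. Of the 10 genes, 9 had positive log2 fold changes, with a median of 0.78. Genes at or above the lowest member's mean level leaned the same way: 80.7% of 9579 were positive, with a median of 0.48. With edgeR on the recovered reads, which uses TMM scaling, the lean was smaller. There 8 of the 10 genes were positive, with a median of 0.54, beside 62.4% and 0.17 for the genes at that level. In the limma fit the lean also depended on the libraries used. Without WT mouse 2, which had 488648 reads, the members' median was 0.29 and that of the 9579 genes 0.09, and without WT mouse 1 they were 1.48 and 0.91.

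Ldha showed that spread. It had 563 and 976 normalized counts in cKO, against 514 and 174 in WT, so the cKO libraries were above both WT libraries but WT mouse 1 lay near cKO mouse 1. The log2 fold change on the log2(normalized count + 1) scale was 1.31 with an SE of 1.32 (adjusted p = 0.97 in limma). Slc2a1 had 64.5 and 160 normalized counts in cKO and 126 and 85.4 in WT, where the cKO pair spans the WT pair, and a log2 fold change of -0.03 (SE 0.76). Mpc1 had 19.1 and 40.8 normalized counts in cKO and 18.6 and 14.2 in WT, from 9 to 50 reads a library. In normalized counts, Pkm, Pgk1 and Ldha, like Mpc1, had both cKO libraries above both WT libraries, 4 of 10 members. Among all genes tested this held for 16.4% (32.8% with groups apart in either direction). In CPM, Mpc1 was at 16.1 in both cKO mouse 1 and WT mouse 2. SEs over the 10 genes were 0.59 to 1.46 here in limma and 0.15 to 0.27 in the bulge in edgeR. The limma SE is drawn toward a trend over all genes tested, so these SEs do not compare the spread of the libraries. Libraries of this set also stood apart in marker genes: Lor of the outer epidermis was at 10.5 and 164 CPM in cKO and 2230 and 16.1 CPM in WT, and Lhx2 of the bulge was at 490 and 32.5 CPM in cKO and 43.4 and 58.9 CPM in WT. Their part in these values was not tested. The library of cKO mouse 1 was the only one of the 4 with male RNA (20.4 CPM of Ddx3y).

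In hair germ stem cells prepared by SMART-seq, none of the 10 genes was called either. Their log2 fold changes ran from -0.33 (Ldha) to 0.28 (Pfkp). edgeR called 0 of 17547 genes (0.0%), with 179 at an unadjusted p under 0.05 and 0 called by DESeq2. Groups did not overlap for 2 of the 10, Aldoa and Ldha, beside 24.3% of all genes tested. The median of the 10 genes was 0.03, beside -0.02 for all genes tested. Ldha had 148 and 143 CPM in the libraries labelled cKO, below the 195 and 169 CPM in those labelled WT (log2 fold change -0.33, SE 0.19, unadjusted p = 0.138 and adjusted p = 1.0 in edgeR). Slc2a1 had 85.3 and 64.9 CPM in the libraries labelled cKO, inside the 98.4 and 44.4 CPM of those labelled WT. Mpc1 had 6.73 and 7.38 CPM in the libraries labelled cKO and 9.74 and 6.50 CPM in those labelled WT. Pdk4, the gene that fell most near the pathway in the bulge, had 17.5 and 7.27 CPM in the libraries labelled cKO and 7.59 and 7.86 CPM in those labelled WT, which overlap. Mouse 2 of each genotype carried male RNA here (69.4 and 69.7 CPM of Ddx3y), so the sexes were balanced.

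**Figure D4:**
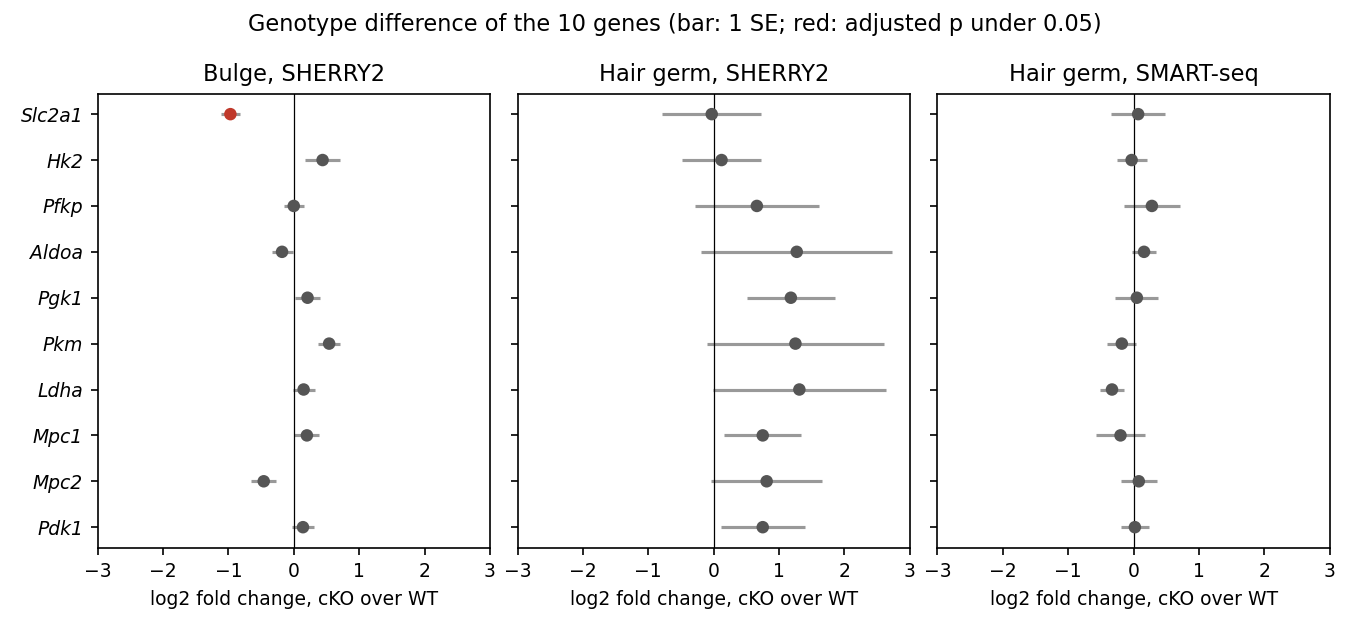
Log2 fold change, cKO over WT, of each gene in the 3 datasets, with bars of 1 SE and red where the adjusted p was under 0.05. Slc2a1 in the bulge, at -0.97, is the only red point. The SEs in hair germ SHERRY2 are from limma and reach 1.46, whereas those of the other datasets are from edgeR.

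Whether the genotype effect differed between datasets was tested in joint edgeR fits, which take the same spread per gene for both datasets. The bulge differs from both hair germ sets in compartment and RNA input, and from SMART-seq in protocol too, which these fits cannot tell apart. The SMART-seq genotype labels were taken as given. The bulge effect minus the SMART-seq effect was -1.04 for Slc2a1 (SE 0.47, unadjusted p = 0.057, adjusted p = 0.733 in edgeR). For Pkm it was 0.73 (SE 0.28, unadjusted p = 0.0332, adjusted p = 0.717 in edgeR). Against hair germ SHERRY2, the difference for Slc2a1 was -0.60 (SE 0.49, adjusted p = 0.868 in edgeR). No member passed in either fit, where 8 of 18806 genes (0.0425%) and 31 of 26139 (0.119%) did. Pdk4 had the widest gaps of the named genes after Adm, at -3.49 against SMART-seq and -2.52 against hair germ SHERRY2, with adjusted p of 0.237 and 0.225 in edgeR. A fall of Slc2a1 or Pdk4 in the bulge is therefore not shown to differ from the hair germ.

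The 10 genes covered a wide range of levels, given here as CPM per kilobase of exon. In WT bulge libraries Aldoa was highest at 166, followed by Pkm at 96.4 ± 0.283, Ldha at 94.2 ± 2.19, Pgk1 at 62.5 ± 5.73 and Slc2a1 at 57.7 ± 4.88 (SD, n = 2). Pfkp at 17.1 ± 1.77, Mpc1 at 11.3 ± 1.20, Mpc2 at 7.02 ± 1.32 and Hk2 at 3.21 ± 1.05 came below, and Pdk1 (9.51 to 12.4 over all 4 libraries) stood between Mpc1 and Mpc2. Over the 4 bulge libraries, Aldoa and Pkm, Pkm and Ldha, Pgk1 and Slc2a1, Mpc1 and Pdk1, and Mpc2 and Hk2 overlapped, while the other neighbours in this order did not. In SMART-seq the order began in the same way, with Aldoa, Pkm and Ldha at 85.6, 70.3 and 55.1 in the libraries labelled WT. Hk2 stood elsewhere: it was 3.21 ± 1.05 per kilobase in WT bulge cells, 5.34 ± 1.75 in WT hair germ by SHERRY2 and 23.6 ± 4.95 in hair germ libraries labelled WT by SMART-seq. By SMART-seq it was 65.0 and 68.3% of Hk1 plus Hk2 in the libraries labelled cKO and 56.9 and 77.6% in those labelled WT. Protocol and cell type cannot be told apart between the bulge and the SMART-seq libraries, and the tables were made separately, so this is a description.

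The genes most like Ldha and Mpc1 across libraries were found by Pearson's r of log2(CPM + 1), centred within each dataset, over 12 libraries and 9992 genes with a mean of at least 5 CPM in each dataset. For Ldha these were Cisd1 (0.989), Grwd1 (0.985), 2310061I04Rik (0.984), Thumpd1 (0.977) and Def6 (0.977). For Mpc1 they were Abhd11 (0.955), C030006K11Rik (0.952), Timm9 (0.945), Nsun5 (0.936) and Tsen54 (0.925). The libraries share depth differences, and the shallow hair germ SHERRY2 set carries much of the variation. Without it, over 8 libraries, Cisd1 with Ldha was 0.907 and Abhd11 with Mpc1 was 0.851. The genes named for Ldha then ran from 0.782 (Thumpd1) to 0.918 (Grwd1), and those for Mpc1 from 0.764 (Tsen54) to 0.955 (Nsun5). Ldha and Mpc1, which act on opposite sides of the pyruvate branch, had an r of 0.637 with each other over 12 libraries and 0.704 over those 8. Many genes were more alike: over 12 libraries Mpc1 ranked 3028 for Ldha, and Ldha ranked 872 for Mpc1.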

How the data were processed

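The bulge table held read counts and FPKM per gene, the hair germ SHERRY2 table a normalized signal (counts divided by size factors) and the SMART-seq table read counts, all as deposited by the authors. The submitters' processing notes name STAR and featureCounts, among other tools, and the build GRCm38, with no order or role; for the SMART-seq batch HISAT2, Subread and GRCm39 are also named. Versions are not given there. The SHERRY2 hair germ table also holds the authors' deposited log2 fold changes, p-values and a test score, which were not used.

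Counts were tested with edgeR 4.0.16 (quasi-likelihood, TMM, filterByExpr) in R 4.3.3, cKO against WT, two-sided, with Benjamini-Hochberg adjustment over all genes tested and a threshold of 0.05. CPM use TMM library sizes. The SHERRY2 hair germ values were not counts, so limma 3.58.1 with a trend was used on log2(value + 1), keeping genes whose mean was 1 or more. In each column 100% of values were whole reads within 0.01 reads, so edgeR and DESeq2 1.42.0 were also run on them. Columns of that table were assigned to genotypes by name. Exon lengths came from the bulge table. The fits were tested on simulated data.

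The named genes were the 10 members, each other list's called genes in the bulge or, if fewer than 3, those of lowest p up to 3, and the 5 genes most like Ldha and Mpc1. One gene that this rule names is not reported here. Members, lists and tests were chosen with earlier results of these data known. The labels number the mice but do not say that a number marks a shared litter or day. P-values rest on the spread between these libraries, and in limma and edgeR each gene's spread is drawn toward a trend over all genes tested.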

Additional observations from a re-analysis of the deposited data

Results flagged for a closer look

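The share of Mpc1 in Mpc1 plus Mpc2, per kilobase of exon, moved in opposite directions in 2 datasets. In the bulge, both cKO libraries (71.4 and 72.4%) lay above both WT libraries (63.4 and 60.5%), a difference of 9.96 percentage points. In hair germ SMART-seq, both libraries labelled cKO (56.0 and 55.6%) lay below both labelled WT (61.6 and 59.2%), a difference of -4.59 percentage points. The difference between the datasets was not tested for this share. In the joint edgeR fit on the genes themselves, the bulge effect minus the SMART-seq effect was 0.41 for Mpc1 and -0.54 for Mpc2, with adjusted p of 0.851 and 0.779. Mpc1-ps took 31.9 to 38.4% of the reads of Mpc1 and Mpc1-ps in the bulge and 5.0 to 8.0% in SMART-seq, and its part in the shares was not tested.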

How the results depend on the processing

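Slc2a1, Pdk4, Pcx, Adm and Bnip3 kept their calls in the bulge in all alternatives run. The bulge count of 476 genes was 1191 in DESeq2 and 1549 with no filter on low counts, 218 to 1601 with 1 library left out. With 1 left out, 1 to 1 member was called; DESeq2 called 2, Slc2a1 and Pkm. The hair germ SHERRY2 count of 3 was 63 in edgeR on recovered reads, 0 in DESeq2, 0 with a pseudocount of 0.1 and 0 with no filter on the mean, and 0 to 105 with 1 library left out. SMART-seq gave 30 with no filter, and 0 to 0 with 1 left out. No member was called in either hair germ dataset, in these or with 1 left out (0 to 0). The joint fits gave 32 to 605 and 0 to 18 with 1 left out, against 31 and 8, with 0 to 0 members, and DESeq2 called 104 in the fit with SMART-seq. In hair germ SHERRY2 the share of Pfkp in Pfkl plus Pfkm plus Pfkp depended on length correction. Per kilobase it was 40.9 and 40.2% in cKO, above the 39.5 and 33.5% in WT. In plain reads it was 65.5 and 62.5% in cKO and 62.6 and 58.6% in WT, which overlap. The shares of Pdk2, Pdk3 and Pdk4 were taken per kilobase only.

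The deviations of same-numbered mice from their group means had a correlation of 0.00758 in the bulge and 0.229 in SMART-seq, where mouse 2 of each genotype is male. With 2 pairs a dataset and no label that a number marks a shared litter or day, numbers are not taken to pair mice. A replicate block gave 506 genes in the bulge, 5 in hair germ SHERRY2 and 0 in SMART-seq. Mxi1 then had an adjusted p of 0.0568 in edgeR. In hair germ SHERRY2 that correlation was -0.462, and a block with the numbers crossed, chosen after seeing the data, called 468 genes, 408 higher and 60 lower.

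Signs near 0 turned. Pfkp in the bulge was 0.02 in DESeq2, 0.02 with RLE scaling, 0.01 with no filter and 0.00298 with the replicate block. In hair germ SHERRY2, Hk2 was -0.08 in edgeR and Slc2a1 0.08 in DESeq2, and in SMART-seq Pgk1 was -0.01 with the block. With 1 library left out, bulge log2 fold changes ran from -0.11 to 0.10 for Pfkp, -0.04 to 0.45 for Pgk1, -0.05 to 0.34 for Ldha and -0.04 to 0.34 for Pdk1. In hair germ SHERRY2 they ran from -0.68 to 0.62 for Slc2a1 and -0.30 to 0.54 for Hk2. In SMART-seq they ran from -0.38 to 0.76 for Slc2a1, -0.24 to 0.21 for Hk2, -0.14 to 0.89 for Pfkp, -0.45 to 0.42 for Pgk1, -0.46 to 0.12 for Mpc1, -0.11 to 0.32 for Mpc2 and -0.12 to 0.18 for Pdk1. Differences of the bulge from hair germ SHERRY2 ran from -0.51 to 0.09 for Mpc1 and -0.66 to 0.19 for Pdk1. Differences from SMART-seq ran from -0.88 to 0.15 for Pfkp, -0.20 to 0.69 for Pgk1 and -0.03 to 0.34 for Pdk1. The causes were not tested.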
